A study of Mus musculus with 4 samples.

Results

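The genes described here are 10 components of the calcium machinery that a mouse oocyte uses at egg activation. They were chosen by symbol as Itpr1, Itpr2, Itpr3, Cacna1h, Trpm7, Trpv3, Stim1, Orai1, Camk2g and Atp2a2. All 10 are among the 16861 genes that each library lists, and no symbol was absent. RNA-seq was performed on fully grown oocytes still arrested at the germinal vesicle (GV) stage, which were taken from 3-week-old female C57BL/6J mice and freed of cumulus cells. Oocytes were stained with Hoechst and sorted by eye on their chromatin. NSN (non-surrounded nucleolus) oocytes show diffuse nuclear staining with no rim of DNA at the nucleolus, and SN (surrounded nucleolus) oocytes show such a rim. NSN and SN oocytes shared strain, sex, age, collection and the milrinone in the staining medium, which holds oocytes in arrest, and oocytes that could not be placed in either class were left out. There were 2 NSN and 2 SN libraries, each made from a pool of 15 oocytes, although the protocol speaks of 3 samples in a group, and n = 2 throughout. Whether the libraries of a group came from separate animals is not given in the sources used here, so every p-value measures the spread between these libraries only, which may be technical.

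The fertilising sperm delivers a phospholipase C that produces inositol trisphosphate (IP3), which opens IP3 receptors in the membrane of the endoplasmic reticulum and sets off repeated rises in cytosolic calcium. Between rises, the SERCA pump returns calcium to the endoplasmic reticulum, and channels of the plasma membrane let calcium in from outside so that the stores stay filled. Calcium/calmodulin-dependent kinase II reads the calcium rises and releases the egg from meiotic arrest, and the machinery is laid down during oocyte growth and maturation, before fertilisation.

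Transcripts of the pump Atp2a2, the store-operated entry channel Orai1 and the IP3 receptor Itpr1 had higher FPKM in both SN libraries than in either NSN library. Their SN means were 1.41, 1.34 and 1.48 times the NSN means. The same separation held for 38% of all listed genes, Itpr2 among them. Transcripts of the kinase Camk2g and of Itpr2, the IP3 receptor gene with the highest FPKM, differed by less in the deposited FPKM. Their SN means were 0.909 and 1.10 times the NSN means. Relative to the median of all tested genes, log2 fold changes were 0.37 for Atp2a2, 0.28 for Orai1, 0.32 for Itpr1 and -0.27 for Camk2g. That of Itpr2 was -0.0048. FPKM are read pairs relative to gene length and to the library total. Of the 6 genes with a mean of at least 0.5 FPKM, limma called 0 (fold change of at least 1.2, adjusted p under 0.05), beside 7.93% of all 11672 genes tested. Unadjusted p-values were under 0.05 for 3 of the 6, namely Itpr1, Orai1 and Atp2a2, beside 31.7% of all genes tested. When limma's voom was run on read pairs recovered from the FPKM, it called those same 3 genes higher in SN, beside 15.2% of genes called higher in SN. The 4 remaining genes, Itpr3, Cacna1h, Trpv3 and Stim1, lie below 0.5 FPKM and could be fitted only together with all listed genes, where limma called 0 genes of 16861 and 4092 had an unadjusted p under 0.05.

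The libraries held between 17069772 and 17998361 read pairs, and for a gene of 1 kb a count of 3 read pairs is 0.167 to 0.176 FPKM. This floor covers counting error only, since read pairs amplified by PCR are not independent molecules. Across all tested genes the median log2 fold change of SN over NSN was 0.14, and dividing each library by its median ratio to the mean library (median scaling) brought it to 0.01. All 12 oocyte markers examined were listed, and their summed FPKM was 24410.5 and 22829.8 in the NSN libraries against 16477.5 and 15486.7 in the SN libraries. Of 14 granulosa and cumulus cell markers, 8 were listed. They summed to 9.48 and 13.6 FPKM in NSN and 13.8 and 13.7 FPKM in SN. Cyp19a1 was the highest of these, at 5.81 and 8.06 FPKM in NSN and 8.38 and 8.22 FPKM in SN. Foxl2 and Amh were not among the listed genes. The part of the shift in oocyte markers in the values below was not tested. FPKM do not give an amount per oocyte, and in pooled oocytes fewer cells with a transcript and less of it per cell cannot be told apart.

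The 10 genes spanned more than 2 orders of magnitude per unit of length. Atp2a2 had the highest mean over the 4 libraries at 53.2 FPKM, and more FPKM than 93.0% of listed genes. Camk2g came next at 40.9 FPKM, although its 4 values and those of Atp2a2 overlapped, with Atp2a2 higher in 3 of 4 libraries. Itpr2 at 16.7 and Orai1 at 15.5 FPKM also overlapped, with Itpr2 higher in 3 of 4 libraries. Trpm7 at 3.87 and Itpr1 at 2.004 FPKM were each apart from their neighbours in every library. Trpv3 at 0.430, Stim1 at 0.298 and Cacna1h at 0.269 FPKM formed a group in which neighbouring genes overlapped, and Itpr3 was lowest at 0.121 FPKM. With the longer exonic length of the current GENCODE annotation in place of the length the authors used, Stim1 and Cacna1h changed places and the rest of the order remained.

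**Figure D1:**
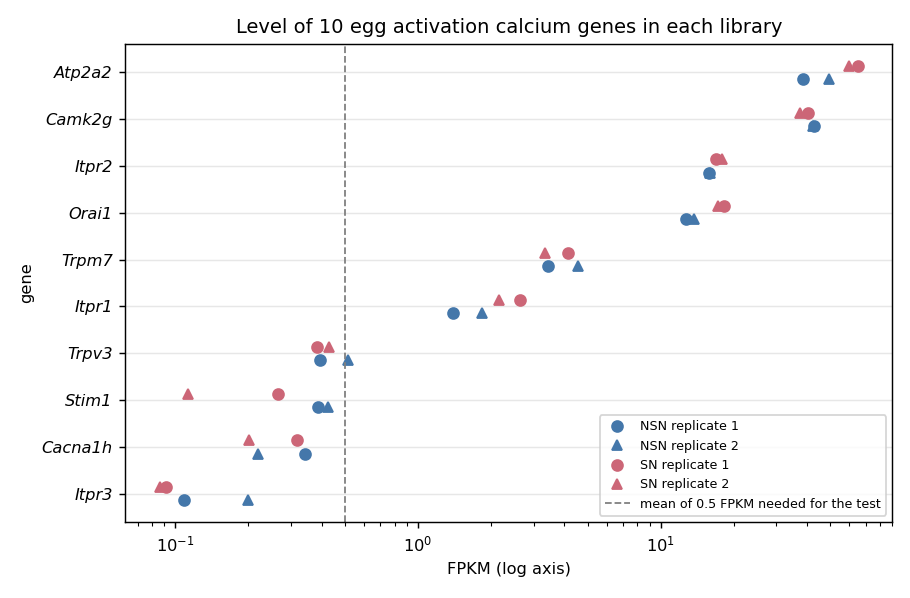
FPKM (log axis) of the 10 genes in each of the 4 libraries, with NSN in blue, SN in red, circles for replicate 1 and triangles for replicate 2. The dashed line marks the mean of 0.5 FPKM needed for the test, and Itpr3, Cacna1h, Stim1 and Trpv3 have means below it.

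The IP3 receptors are encoded by 3 related genes and are the channels through which calcium leaves the endoplasmic reticulum. Their coding sequences are 68.7% to 70.8% identical at aligned bases, and the longest run shared by any pair is 32 bases. No stretch of 50 bases is shared between their canonical transcripts, so reads of that length can be assigned to 1 receptor. The sequences below are 30 coding bases of each transcript around the selectivity filter of the pore, shown because they allow a reader to see how far the paralogues differ even within a conserved region. Capitals mark the 12 positions at which the 3 sequences are not all the same, written 5′ to 3′ on the coding strand of GRCm39.
Itpr1, exon 58 of 62, plus strand of chr6:108495743-108495772: CggaGTggGggAggGgtAggAgaCGtGctC
Itpr2, exon 53 of 57, minus strand of chr6:146060403-146060432: AggaATggCggCggAgtTggGgaTGtGctG
Itpr3, exon 54 of 58, plus strand of chr17:27337599-27337628: AggaACggTggTggCgtGggCgaCAtCctC
Itpr2 differs from Itpr1 at 9 of the 30 bases and Itpr3 differs from Itpr1 at 10.

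Itpr1 (chr6:108190048-108528070) encodes the receptor type best known for fertilisation calcium release. It had 1.39 and 1.84 FPKM in NSN replicates 1 and 2, and 2.62 and 2.16 FPKM in SN replicates 1 and 2. Both SN values lay above both NSN values, and SN replicate 2 lay close to NSN replicate 2. The group means were 1.61 ± 0.316 FPKM (SD, n = 2) in NSN and 2.39 ± 0.327 FPKM (SD, n = 2) in SN, which rest on 239 to 442 read pairs per library. On the log2(FPKM + 0.5) scale, which understates differences of low genes, the log2 fold change was 0.46 with a standard error (SE) of 0.18 (95% interval 0.03 to 0.89, limma adjusted p = 0.141). Relative to the median gene it was 0.32. With voom on read pairs the log2 fold change was 0.57 and the adjusted p = 0.025, which was 0.091 once the libraries were also scaled by their median.

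Itpr2 (chr6:146009797-146403721), the most abundant IP3 receptor transcript in these oocytes, had 15.8 and 16.0 FPKM in the NSN libraries and 16.99 and 18.0 FPKM in the SN libraries. The SN values lay above the NSN values by a small margin. The log2 fold change was 0.13 (SE 0.10, 95% interval -0.10 to 0.36, limma adjusted p = 0.374), and with median scaling its sign turned to give -0.02 (limma adjusted p = 0.918). It differed from the median gene by -0.0048 on the log2 scale.

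Itpr3 (chr17:27275971-27343866) was the lowest of the 10 genes. It had 17 and 32 read pairs in NSN and 14 in each SN library, or 0.109 and 0.199 FPKM in NSN and 0.0912 and 0.0865 FPKM in SN. The NSN values lay above the SN values, with NSN replicate 2 standing apart from the rest. In the fit on all listed genes the log2 fold change was -0.15 (SE 0.11, limma adjusted p = 0.468), and 8.16% of its annotated exonic bases lie in other genes, including the antisense gene Itpr3os, from which unstranded reads cannot be told apart.

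Across the 3 receptors, Itpr2 made up 91.3% and 88.7% of the summed FPKM in NSN and 86.2% and 88.9% in SN. Itpr1 made up 8.06% and 10.2% in NSN and 13.3% and 10.7% in SN. Both SN shares of Itpr1 lay above both NSN shares, whereas the shares of Itpr2 overlapped between the groups. Per unit of length, Itpr2 transcripts outnumbered those of Itpr1 by 11.3 and 8.72 times in NSN and by 6.47 and 8.31 times in SN. Summed over the receptors, the level was 17.3 and 18.1 FPKM in NSN and 19.7 and 20.2 FPKM in SN. All of these are shares of RNA, and the amounts of receptor protein were not measured.

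Calcium entry across the plasma membrane was represented by 5 genes. Cacna1h (chr17:25593259-25652764) encodes a T-type voltage-gated calcium channel that fills the stores of maturing oocytes. It had 0.341 and 0.219 FPKM in NSN and 0.316 and 0.200 FPKM in SN. The groups overlapped, and in each group replicate 1 was the higher. With 34 to 56 read pairs per library, its log2 fold change was -0.04 (limma adjusted p = 0.896).

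Trpm7 (chr2:126633480-126718182), a channel fused to a kinase that also conducts magnesium, had 3.44 and 4.58 FPKM in NSN and 4.15 and 3.32 FPKM in SN. The groups overlapped, with the highest value in NSN and the lowest in SN. Means were 4.01 ± 0.804 FPKM (SD, n = 2) in NSN and 3.73 ± 0.582 FPKM (SD, n = 2) in SN. The log2 fold change of -0.09 (SE 0.18, 95% interval -0.51 to 0.34, limma adjusted p = 0.770) changed sign when NSN replicate 2 or SN replicate 2 was left out, to 0.10 and 0.05.

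Trpv3 (chr11:73158214-73191193), a TRP channel through which strontium enters eggs during parthenogenetic activation, had 0.394 and 0.517 FPKM in NSN and 0.382 and 0.428 FPKM in SN. The groups overlapped, and the log2 fold change was -0.08 (limma adjusted p = 0.799) from 38 to 54 read pairs per library.

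Stim1 (chr7:101916979-102086526) encodes the sensor of calcium in the endoplasmic reticulum that opens Orai channels when the stores empty. It had 0.388 and 0.427 FPKM in NSN and 0.263 and 0.112 FPKM in SN, which are 30 and 34 read pairs against 20 and 9. Both SN values lay below both NSN values, and the SN mean was 0.462 times the NSN mean. The log2 fold change in the fit on all listed genes was -0.41 (SE 0.15, limma unadjusted p = 0.035, adjusted p = 0.174), and voom on the read pairs of all listed genes gave -1.22 (SE 0.44, adjusted p = 0.074). The 0.5 FPKM added before taking logs exceeds every value of Stim1 and shrinks its fold change in limma.

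Orai1 (chr5:123153043-123168535), the pore of store-operated calcium entry, had 12.7 and 13.8 FPKM in NSN and 18.3 and 17.3 FPKM in SN. The groups were well separated, with replicates of a group closer to each other than to any library of the other group. Means were 13.3 ± 0.716 FPKM (SD, n = 2) in NSN and 17.8 ± 0.710 FPKM (SD, n = 2) in SN. The log2 fold change was 0.41 (SE 0.10, 95% interval 0.17 to 0.65, limma adjusted p = 0.055), or 0.28 relative to the median gene. It was called when only genes with a mean of at least 5 FPKM entered limma (adjusted p = 0.028), beside 21.2% of those genes called higher in SN, and with voom on read pairs (adjusted p = 0.027). Median scaling gave 0.26 and a limma adjusted p = 0.132.

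The closest relatives of these genes in the libraries were Stim2, Orai3 and Camk2d, which were picked for this comparison after their values were seen. Stim2, the sensor that responds to small losses of stored calcium, made up 94.3% and 94.5% of the summed Stim FPKM in NSN and 96.7% and 98.5% in SN. Stim1 was thus a minor transcript of the pair in all 4 libraries, and its share was smaller in both SN libraries than in either NSN library. Orai1 made up 97.4% to 98.2% of the summed FPKM of Orai1 and Orai3 over the 4 libraries, and Orai2 was not among the listed genes.

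Camk2g (chr14:20784942-20844541) encodes the gamma isoform of calcium/calmodulin-dependent kinase II, the isoform that female mice need for egg activation. It had 43.0 and 42.7 FPKM in NSN and 40.3 and 37.6 FPKM in SN. Both SN values lay below both NSN values, and the means were 42.9 ± 0.264 FPKM (SD, n = 2) in NSN and 39.0 ± 1.96 FPKM (SD, n = 2) in SN. The log2 fold change was -0.14 (SE 0.09, 95% interval -0.34 to 0.07, limma adjusted p = 0.311), or -0.27 relative to the median gene. Voom on read pairs with median scaling called it lower in SN at -0.29 (adjusted p = 0.045), beside 8.31% of genes called lower there, whereas limma with median scaling gave -0.29 and an adjusted p = 0.097. Camk2g made up 99.6% to 99.9% of the summed FPKM of Camk2g and Camk2d, and the genes of the alpha and beta isoforms, Camk2a and Camk2b, were not among the listed genes.

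Atp2a2 (chr5:122591575-122640903) encodes the SERCA pump that returns calcium to the endoplasmic reticulum. It had 38.5 and 49.6 FPKM in NSN and 64.8 and 59.8 FPKM in SN. Both SN values lay above both NSN values, and the NSN libraries were further from each other than the SN libraries were. Means were 44.1 ± 7.85 FPKM (SD, n = 2) in NSN and 62.3 ± 3.55 FPKM (SD, n = 2) in SN, with 3538 to 5840 read pairs per library. The log2 fold change was 0.51 (SE 0.13, 95% interval 0.19 to 0.82, limma adjusted p = 0.061), or 0.37 relative to the median gene. Without NSN replicate 1 the log2 fold change was 0.32 (limma adjusted p = 0.178), and without NSN replicate 2 it was 0.69 (limma adjusted p = 0.013), where 11.7% of genes were called higher in SN. Median scaling gave 0.35 (limma adjusted p = 0.120). The adjusted p was 0.023 by limma with only genes of a mean of at least 5 FPKM and 0.0056 with voom on read pairs. Voom with median scaling gave 0.35 (adjusted p = 0.037), beside 6.46% of genes called higher there. Of its 12239 exonic bases in the current annotation, 30.3% lie in other annotated genes, chiefly Gm43361. The FPKM rest on a length of 5277 bp. Of the 50-base stretches of its canonical transcript, 6.38% are shared with other genes, so part of its read pairs is uncertain.

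**Figure D2:**
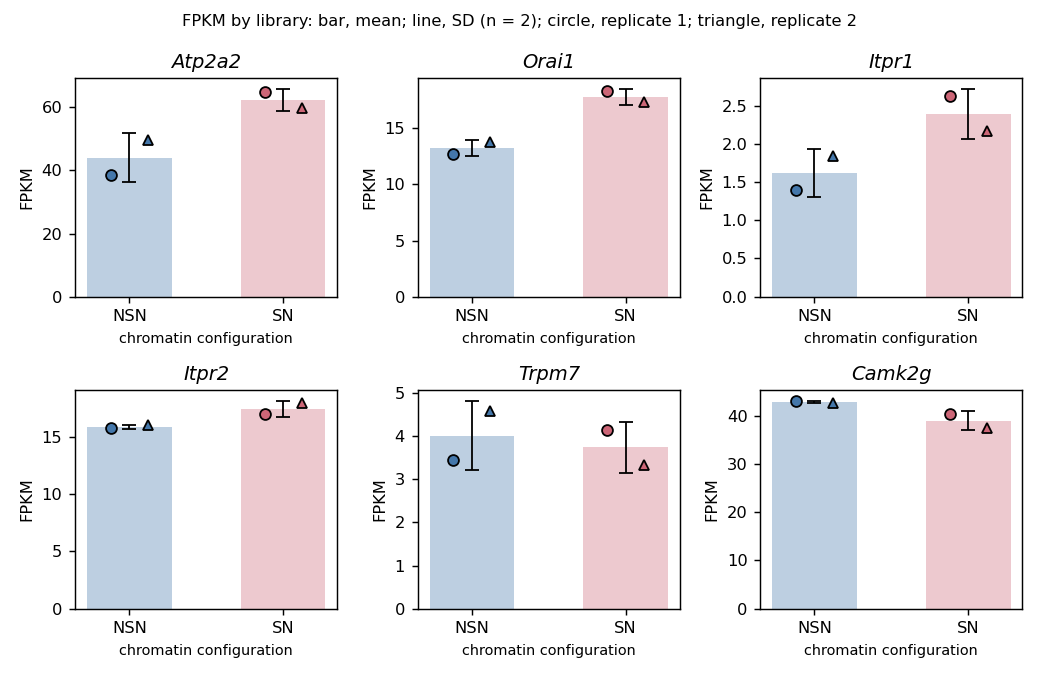
FPKM of the 6 tested genes in NSN and SN oocytes, where each bar starts at 0 and shows the mean of 2 libraries, each line the SD, and each symbol a library (circle, replicate 1, and triangle, replicate 2). The symbols of the groups are apart for Atp2a2, Orai1, Itpr1, Itpr2 and Camk2g, and they overlap for Trpm7.

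Across all 10 genes, the SN and NSN libraries were apart for 7, with SN above NSN for 4 (Itpr1, Itpr2, Orai1 and Atp2a2) and below for 3 (Itpr3, Stim1 and Camk2g). Among all listed genes they were apart for 55.5%, with SN above for 38% and below for 17.5%. The median log2 fold change of the 6 tested genes was 0.27, beside 0.14 for all tested genes. The smallest two-sided p that exact permutation allows for 2 libraries per group is 0.333, so each p-value relies on limma's pooling of variance over genes.

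**Figure D3:**
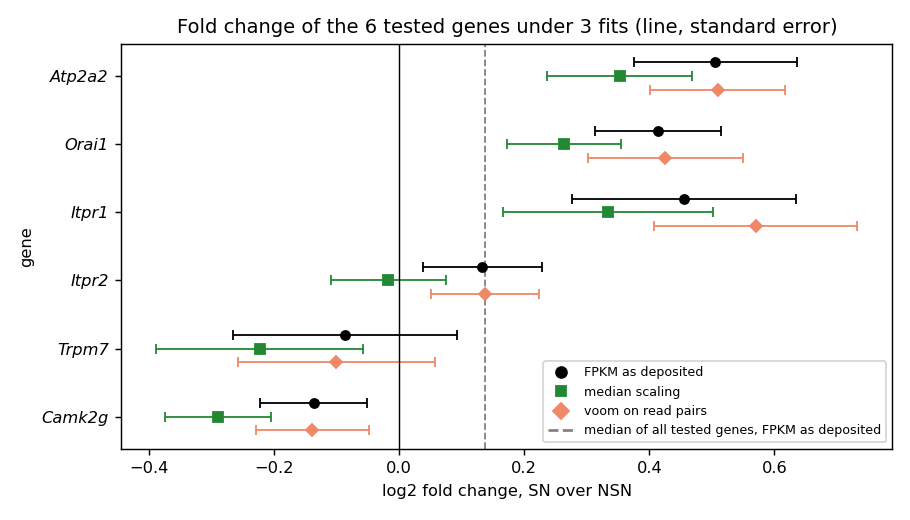
Log2 fold change of SN over NSN for the 6 tested genes, with its standard error, by limma on the deposited FPKM (black), by limma after median scaling (green) and by voom on recovered read pairs (orange). The dashed line is the median of all tested genes at 0.14, and median scaling takes Itpr2 from 0.13 to -0.02, whereas the other 5 genes keep their sign in all 3 fits.

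Ratios between genes within a library do not depend on the scaling of the library. Of the 15 pairs among the 6 tested genes, ratios were apart between SN and NSN in 10, beside 56.7% of all pairs of tested genes. Itpr1 over Trpm7 was 0.404 and 0.401 in NSN and 0.633 and 0.651 in SN. Orai1 over Camk2g was 0.296 and 0.322 in NSN and 0.454 and 0.461 in SN. Camk2g over Atp2a2 was 1.12 and 0.860 in NSN and 0.622 and 0.628 in SN. The kinase transcript thus exceeded the pump transcript per unit of length in NSN replicate 1 alone. The 3 ratios among Itpr1, Orai1 and Atp2a2 all overlapped between the groups, that of Itpr1 over Atp2a2 being 0.0361 and 0.0370 in NSN and 0.0405 and 0.0361 in SN. These ratios were not tested, and they show unequal differences between genes, not which gene of a pair differed.

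The surrounding pathway was described by 123 other genes in 8 lists, of which 90 were listed and 64 tested. Limma called 6 of the 64, 2 higher and 4 lower in SN, beside 5.95% and 1.98% of all tested genes. Their median log2 fold change was 0.03, below the 0.14 of all genes. Among proteins that bind calcium inside the endoplasmic reticulum, all 9 listed genes were tested, with 1 called higher, 2 called lower and a median of -0.16. Calr, encoding the main calcium-buffering protein there, fell from 223 ± 17.1 to 139 ± 5.87 FPKM (SD, n = 2 each), a log2 fold change of -0.68 (SE 0.08, limma adjusted p = 0.036). P4hb, known as an enzyme of disulphide bond formation rather than as a calcium store, fell from 58.3 ± 2.12 to 38.9 ± 0.799 FPKM (SD, n = 2 each), by 0.58 on the log2 scale (limma adjusted p = 0.036), with 21.2% of its annotated exonic bases in another gene. Canx, the membrane-bound relative of Calr, rose from 62.3 ± 1.77 to 81.4 ± 3.57 FPKM (SD, n = 2 each), by 0.38 on the log2 scale (limma adjusted p = 0.045), and was not called after median scaling (0.23, limma adjusted p = 0.157).

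In the list of calcium decoding, which also holds proteins that act downstream of calcium, 16 genes were tested, with 2 called lower in SN, beside 1.98% of all genes, and a median of 0.05. Neither of the 2 encodes a calcium sensor. Astl, encoding the cortical granule protease ovastacin that hardens the zona pellucida after activation, fell from 155 ± 32.8 to 73.4 ± 11.3 FPKM (SD, n = 2 each), a log2 fold change of -1.06 (SE 0.16, limma adjusted p = 0.036). Prkcd, a protein kinase C isoform that is activated by diacylglycerol rather than by calcium, fell from 4.11 ± 0.0207 to 2.48 ± 0.155 FPKM (SD, n = 2 each), by 0.63 on the log2 scale (limma adjusted p = 0.045). Calm2, a calmodulin gene and the highest of the list, had group means of 406 and 430 FPKM (log2 fold change 0.08, limma adjusted p = 0.569), with the sign turned to -0.07 by median scaling. After median scaling, limma still called Calr, P4hb, Astl and Prkcd lower, beside 1.54% of all tested genes called lower and 2.21% called in all.

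Of the other pumps and exchangers, 4 were tested, with 1 called higher and a median of 0.16. Atp2b1, a plasma membrane pump that expels calcium from the cell, rose from 20.4 ± 1.31 to 28.8 ± 0.833 FPKM (SD, n = 2 each), a log2 fold change of 0.49 (SE 0.10, limma adjusted p = 0.042), which was 0.34 after median scaling (limma adjusted p = 0.075). Atp2c1, the Golgi calcium and manganese pump and the highest of the list, had means of 48.5 and 63.0 FPKM (log2 fold change 0.37, limma adjusted p = 0.059). Atp2a1 and Atp2a3, the other SERCA genes, were not among the listed genes.

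In the 5 remaining lists 0 genes were called by limma, while 7 of the 35 genes tested had an unadjusted p under 0.05, beside 31.7% of all genes tested, and voom on read pairs called 4, beside 19.8% of all genes. The 4 phospholipase C genes tested had a median log2 fold change of 0.11. Plce1 was the most abundant of them with means of 37.9 and 39.4 FPKM (limma adjusted p = 0.698), and the sperm phospholipase Plcz1 was not among the listed genes. The 2 tested genes of IP3 breakdown had a median of 0.16, and Inpp5a, which removes a phosphate from IP3, had means of 4.94 and 5.67 FPKM (limma adjusted p = 0.366). The 9 tested genes of other release channels and IP3 receptor partners had a median of -0.08. Fkbp1a, a small protein that binds calcium release channels, had means of 76.8 and 67.8 FPKM (limma adjusted p = 0.195). The 9 tested genes of plasma membrane entry had a median of 0.09. Saraf, an inhibitor of store-operated entry and thus of the step that Orai1 carries out, had means of 130 in NSN and 101 in SN FPKM (log2 fold change -0.35, limma adjusted p = 0.072). It was called lower by limma with only genes of a mean of at least 5 FPKM (adjusted p = 0.032), beside 327 of 5519 genes called lower. Voom without and with median scaling also called it lower (adjusted p = 0.021 and 0.0094), beside 541 and 969 of 11659 genes. The mitochondrial uptake gene Mcu, called higher, also passed both limma with that filter and voom without median scaling. So did 2 genes of the lists above, Atp2c1, called higher, and Hspa5, called lower. Voom with median scaling called Hspa5 (adjusted p = 0.0072) but not Atp2c1 (adjusted p = 0.110) or Mcu (adjusted p = 0.074). Other annotated genes hold 44.2% of the annotated exonic bases of Hspa5, 18.5% of those of Atp2c1 and 15.7% of those of Saraf. The 11 genes of mitochondrial calcium uptake had a median of 0.04, and the outer membrane channel Vdac3 had means of 593 and 667 FPKM (log2 fold change 0.17, limma adjusted p = 0.148).

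**Figure D4:**
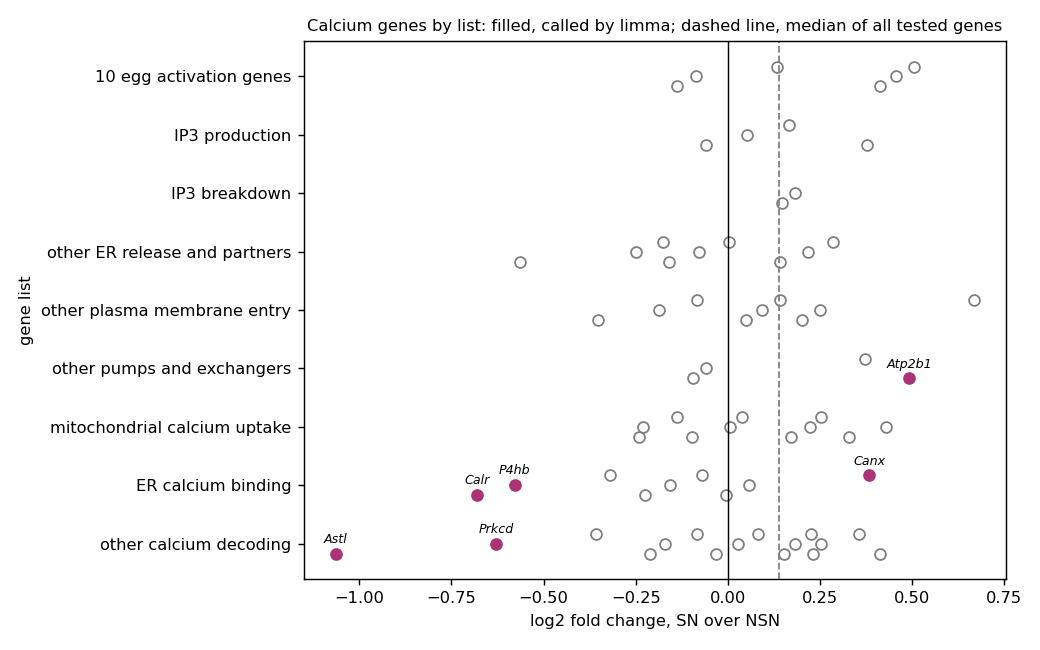
Log2 fold change of SN over NSN by limma for each tested gene of the 10 egg activation genes and of 8 lists of the surrounding pathway, 1 point per gene. Filled points are the 6 genes called, of which Canx and Atp2b1 lie right of 0, and Astl, Calr, P4hb and Prkcd left of it, and the dashed line is the median of all tested genes at 0.14.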

How the data were processed

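The authors trimmed reads with Trim Galore 0.6.10 (submitters' processing notes), aligned them to GRCm39 by HISAT2, obtained exonic read pairs per gene by featureCounts (unstranded, primary alignments, mapping quality of at least 10) and deposited FPKM made with a script of their own. The counts, on which they ran DESeq2, were not used here. Library totals, gene lengths and read pairs were recovered from the deposited FPKM, starting from 5 mitochondrial tRNA genes. The length of each gene was solved as one that makes its read pairs whole. Read pairs came out within 1e-05 of a whole number for 99.9% of 16861 genes.

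SN and NSN were compared on log2(FPKM + 0.5) with limma 3.58.1 in R 4.3.3 (lmFit, eBayes with trend) where the mean FPKM was 0.5 or more. Calls needed a two-sided Benjamini-Hochberg adjusted p under 0.05 over all these genes and a 1.2-fold change. The 4 genes below the filter were read from a fit on all listed genes. The procedure was tested on simulated data. Alternatives were other pseudocounts, filters and thresholds, median scaling, eBayes without trend, a replicate block, a loess on gene length (span 0.3), voom on read pairs, and each library left out. Voom with median scaling or on all listed genes was added after the data were examined.

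Genes named are the 10 members, each gene called in a pathway list, the gene with the highest mean FPKM in each list, and the 3 genes most like Itpr1. Stim2, Orai3, Camk2d, Cyp19a1, Mcu and Hspa5, and genes named only as not listed, were added after their values were seen. The members and lists were chosen with earlier results of these data known. Positions and transcripts are from GENCODE vM39 on GRCm39, in which 97.8% of symbols occur once, while the authors used release vM34. Python 3.11.15 (numpy 2.4.6, pandas 2.3.3, scipy 1.17.1, Biopython 1.88, matplotlib 3.10.9) served for the remaining steps.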

Additional observations from a re-analysis of the deposited data

How the results depend on the processing

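The count over all genes depended most on the settings. Limma called 926 (695 higher and 231 lower in SN), 1496 with a mean of at least 5 FPKM, 422 with the replicate block, 391 with the length correction, 258 with median scaling (78 higher and 180 lower), 76 at a fold change of at least 2, and 0 with all listed genes, with no variance trend, or with the length correction and replicate block together (4092, 3449 and 2913 unadjusted p under 0.05). Voom called 2314 (1773 higher and 541 lower), 1722 with median scaling (753 and 969) and 2308 on all listed genes. Without 1 library, limma called between 0 (NSN replicate 1 left out) and 1685 (NSN replicate 2 left out), with 148 without SN replicate 1 and 11 without SN replicate 2. Of the 10 egg activation genes, 6 entered the main fit and 0 were called. Limma with a mean of at least 5 FPKM called 2 of the 4 that entered (Orai1 at 0.41 and Atp2a2 at 0.51). Voom called 3 of 6, and the same 3 of 10 on all listed genes (Itpr1 at 0.57, Orai1 at 0.43 and Atp2a2 at 0.51). Voom with median scaling called 2 (Camk2g at -0.29 and Atp2a2 at 0.35), and leaving out a library gave 0 to 2 (Orai1 and Atp2a2 without NSN replicate 2). Log2 fold changes without 1 library ranged from 0.30 to 0.61 for Itpr1, 0.09 to 0.17 for Itpr2, -0.27 to 0.10 for Trpm7, 0.36 to 0.47 for Orai1, -0.19 to -0.09 for Camk2g and 0.32 to 0.69 for Atp2a2. Itpr2 turned to -0.0176 with median scaling, to -0.0177 with voom and median scaling, and to -0.0271 with the length correction, with or without the block. Trpm7 turned to 0.0960 without NSN replicate 2 and to 0.0540 without SN replicate 2. The replicate block changed no call of the egg activation genes (limma adjusted p = 0.0897 for Orai1 and 0.0760 for Atp2a2). The same-numbered libraries did not deviate together (correlation -0.07 over 11672 genes), and the labels give them only a number. Of the pathway genes, 6 were called, 3 with the replicate block or the length correction (Astl, Calr and P4hb), 0 with both, with all listed genes or with no variance trend (13, 16 and 14 unadjusted p under 0.05), 12 with voom or voom on all listed genes, 14 with voom and median scaling, 1 at a fold change of at least 2 (Astl), and 0 (without NSN replicate 1 or SN replicate 2) to 8 (without NSN replicate 2) when 1 library was left out. The cause of these differences was not tested, and some settings also changed the number of genes or libraries that entered. Itpr3, Cacna1h, Trpv3 and Stim1 had the fewest read pairs, 9 to 56 per library.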

Other observations

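Over the 4 libraries, the genes whose pattern was most like that of Itpr1 were Prorp, Tet3 and Gm33819, among 5519 genes with a mean of at least 5 FPKM. Likeness was the root mean square difference of log2(FPKM + 0.5) after centring each gene, and it was 0.0129, 0.0171 and 0.0206. Prorp, which encodes a subunit of the mitochondrial RNase P, had 6.12 and 7.89 FPKM in NSN and 10.6 and 8.91 FPKM in SN. Tet3, which encodes an enzyme that oxidises methylated cytosine, had 33.6 and 40.5 FPKM in NSN and 55.2 and 47.5 FPKM in SN. In each of these genes, as in Itpr1, NSN replicate 1 was lowest and SN replicate 1 highest, which follows from how they were picked. In all, 475 of the 5519 genes lay within 0.1 of Itpr1, so many genes shared this pattern. All 5519 had a higher mean than the 2.004 FPKM of Itpr1.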
